A study of Mus musculus with 20 samples.

Results

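The comparison described here set p63 knockout epidermis at embryonic day 13 (E13) against heterozygous epidermis at embryonic day 9 (E9), to ask which changes between the stages still occur without p63. Its members were chosen from the sample labels: the 3 RNA-seq libraries of E13 KO epidermis and the 3 of E9 Het epidermis, which are 6 of the 12 RNA libraries with gene counts and 6 of the 20 samples of the series. All of these mouse embryos carried the ΔNp63-GFP knock-in. The E9 animals were ΔNp63-GFP KI-Het, with 1 copy of the allele, and the E13 KO animals ΔNp63-GFP KI-KO. Dorsal skin was digested with trypsin and collagenase to single cells, of which the GFP-positive ones were collected by flow cytometry as epidermis; their RNA was depleted of ribosomal RNA. Another 3 libraries, of KI-Het epidermis at E13, were fitted together with these 6, so that each gene's stage change in Het epidermis can be read beside its change in KO epidermis. E13 KI-Het dermis (3 libraries, sorted with a CD140a antibody and made from oligo(dT)-selected RNA) served only to show levels in the neighbouring tissue.

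No wild-type epidermis and no E9 KO library was analysed here. Stage and genotype therefore change together between the E9 Het and E13 KO libraries and cannot be told apart in that contrast alone. The sort gate follows GFP, which by the name of the allele is tied to the Trp63 gene itself. The labels do not say whether the libraries of a group came from separate embryos, from litters or from pools, so the p-values measure the spread between these libraries, which may be technical.

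p63, the product of Trp63, is a transcription factor of the p53 family. Its short ΔN form is the main one in epidermis, where it maintains the basal layer and switches on basal keratins, adhesion genes and signalling receptors. Before the skin stratifies, the embryo is covered by a single-layered surface ectoderm with simple-epithelium keratins. Embryos without p63 keep a thin surface layer and form no stratified skin.

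Levels in epidermis are given as CPM, read counts relative to the library total after scaling by the trimmed mean of M values (dermal levels are relative to the unscaled total), with libraries in the order of their replicate numbers (1, 2 and 4 for E9 Het, and 1, 2 and 3 for each E13 group). Changes are log2 fold changes from edgeR's quasi-likelihood fit of the 9 epidermal libraries, each with its standard error (±), and a gene was called where its Benjamini-Hochberg adjusted p over all genes tested was under 0.05. The stage change in Het and the stage change in KO share their E9 libraries, so they are given side by side, and the difference between them was tested as E13 KO against E13 Het.

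The 6 libraries held 3373819 to 6796420 counts in genes, with 11275 to 16200 genes detected and the lowest of both in E13 KO replicate 3. E9 Het replicate 4 stood apart by transcripts of muscle and blood, and by a lower sum of Hox and Cdx genes. Its summed level of 12 genes listed for skeletal muscle was 311 CPM against 41.4 and 39.2 in the other E9 libraries. Myod1 and Myog of that list had no counts at E9, so the sum does not show which kind of muscle it came from. Its sum of 10 globin and red cell genes was 66.5 CPM against 0.306 and 0.765. That of 42 Hox and Cdx genes was 263 CPM against 1023 and 854. Leaving out E13 KO replicate 3 and E9 Het replicate 4 together was an alternative chosen after seeing the data. It called 727 genes in place of 1001 (454 in place of 603 higher, and 273 in place of 398 lower). The E13 Het libraries held 3952643 to 7777808 counts in genes. Their replicate 1 had 10765 genes detected, the fewest of the 9 epidermal libraries. E13 Het replicate 3 had a summed level of 4662 CPM for 22 simple-epithelium genes, against 2401 and 1875 in replicates 1 and 2. For 19 imprinted genes its sum was 13807 CPM against 6801 and 6501. Libraries of a group differed by more than the sampling noise of counts (chi-square per degree of freedom 15.4 to 33.4 for pairs), and each was kept as a library of its own. That value cannot tell separate samples from separate preparations of the same sample.

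Trp63 itself (chr16:25683763-25892088, mm10 coordinates from RefSeq's GRCm38.p6) stood at 300.02, 237 and 130.3 CPM in the E9 Het libraries, at 574, 653 and 492 in E13 Het and at 24.6, 26.5 and 22.4 in E13 KO. Every KO library was below every Het library of either stage. Trp63 fell by 3.18 ± 0.26 (adjusted p = 8.24e-06) from E9. In Het epidermis Trp63 rose over the same stages (1.36 ± 0.24, adjusted p = 0.00305), and KO and Het at E13 differed by -4.54 ± 0.28 (adjusted p = 1.54e-06). The remaining counts lie on the gene as a whole; which exons they cover was not examined, so they do not show that any protein is made.

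Of 13052 genes tested, 1001 were called (7.67%): 603 were higher in E13 KO (4.62%) and 398 lower (3.05%). At least a 2-fold change was reached by 486 of the higher and 246 of the lower genes. The 2 groups did not overlap in any library for 994 of the 1001, against 31.9% of all genes tested. In the same fit, E13 Het against E9 Het gave 952 calls (7.29%; 622 or 4.77% higher and 330 or 2.53% lower), and E13 KO against E13 Het gave 287 (2.20%; 109 or 0.835% higher and 178 or 1.36% lower). The median log2 fold change over all genes tested was 0.01. The number of calls fell to 606 without E9 Het replicate 1, 557 without E9 Het replicate 2 and 592 without E13 KO replicate 1.

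**Figure D1:**
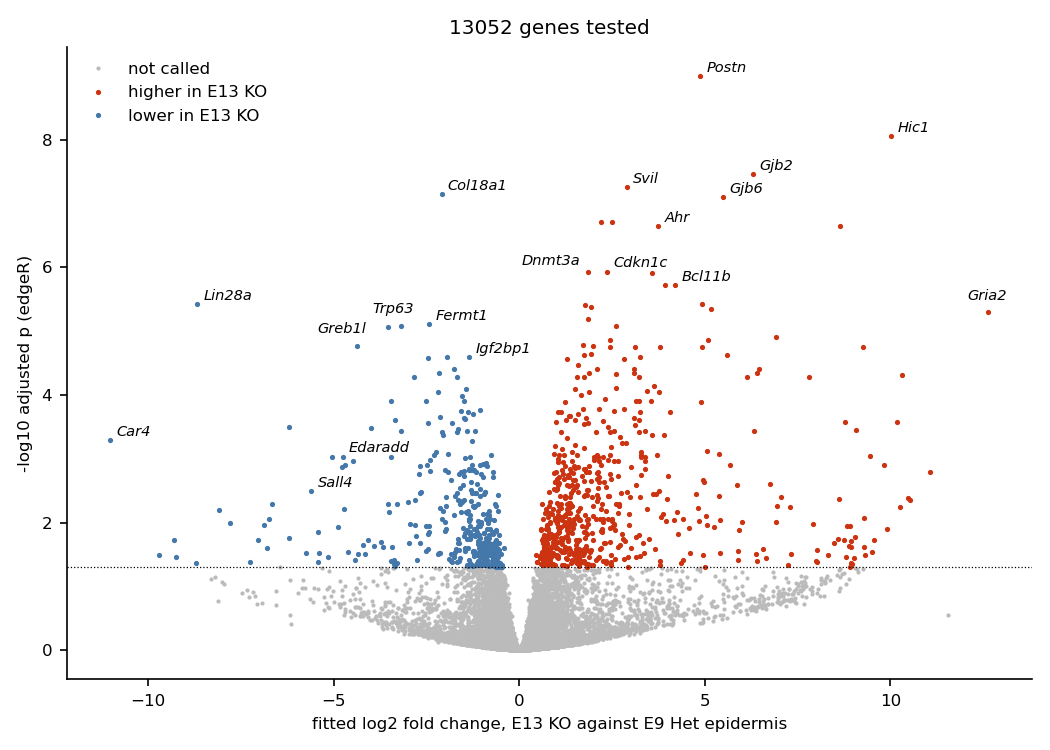
Each point is 1 of 13052 genes; the x axis is the fitted log2 fold change of E13 KO against E9 Het epidermis and the y axis the negative log10 of the edgeR adjusted p, with the dotted line at 0.05. Red points (603) are higher and blue points (398) lower in E13 KO; Postn, Hic1, Gjb2 and Col18a1 lie at the top. Fitted values of genes without counts in a group, such as Gria2 and Car4, depend on the prior count and are no measure of size.

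The 4 genes proposed as markers of the comparison fell into different patterns. Postn (chr3:54359267-54391041) encodes periostin, a matrix protein of dermis and other connective tissue that also lines epithelia. It stood at 20.8, 16.1 and 16.01 CPM in the E9 Het libraries, at 508, 503 and 553 in E13 KO and at 547, 516 and 455 in E13 Het. All 6 libraries of E13 were at least an order of magnitude above those of E9, and the E13 groups overlapped. Postn rose by 4.88 ± 0.17 (adjusted p = 9.93e-10) in KO and by 4.83 ± 0.17 (adjusted p = 1.09e-09) in Het, and the difference between these changes was 0.04 ± 0.14 (adjusted p = 0.965). It had the smallest p of all genes in this contrast.

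Hic1 (chr11:75161377-75170255) encodes a zinc-finger repressor that is silenced by methylation in many tumours. E9 Het epidermis had 3 counts of it in all (0.306, 0 and 0.246 CPM). The KO libraries reached 221, 183 and 257 CPM and the E13 Het libraries 175, 131 and 107. The ratio of KO to E9 Het was 1120, with a 95% counting interval of 384 to 5440 (adjusted p = 8.69e-09), and that of E13 Het to E9 Het was 707 (242 to 3430). KO was above Het in every pair of libraries, a difference of 0.68 ± 0.24 (adjusted p = 0.227) that was not called. Hic1 overlaps Smg6 in the annotation, and no source used here states whether counting used strand, so its reads and those of Smg6 may not be fully separate.

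Ahr (chr12:35497979-35534989), which encodes the aryl hydrocarbon receptor, a ligand-activated transcription factor, rose in both genotypes and further in KO. Its level was 20.5, 15.1 and 20.9 CPM at E9, 106, 94.5 and 147 in E13 Het and 249, 241 and 272 in E13 KO, with no overlap among the 3 groups. The change in KO was 3.75 ± 0.23 (adjusted p = 2.28e-07), that in Het 2.62 ± 0.22 (adjusted p = 6.49e-06), and the 2 changes differed by 1.14 ± 0.21 (adjusted p = 0.00799).

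Col18a1 (chr10:77052178-77166530), the gene for the basement membrane collagen that holds endostatin, went the other way. The E9 libraries had 1294, 1398 and 1288 CPM and the E13 Het libraries 1182, 1106 and 1201, so the heterozygous groups lay close together. The KO libraries had 317, 327 and 293. Col18a1 fell by 2.09 ± 0.11 (adjusted p = 7.10e-08) in KO, whereas the value in Het was -0.19 ± 0.11 (adjusted p = 0.378); KO and Het at E13 differed by -1.90 ± 0.11 (adjusted p = 5.99e-07). None of the calls on these 4 markers was lost when any of the 6 compared libraries was left out; the fitted value for Hic1 moved most, to 10.69 without E9 Het replicate 1.

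**Figure D2:**
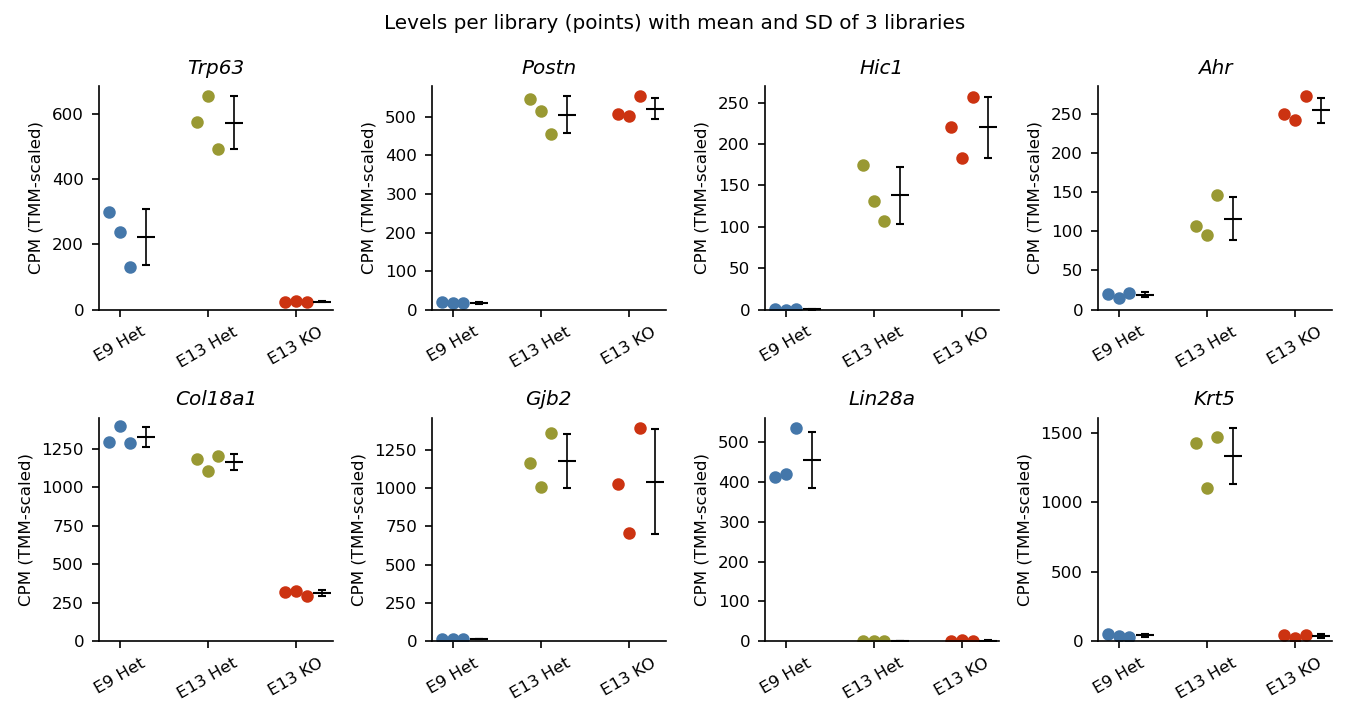
Levels in CPM (y axes, linear from 0) of 8 genes in each library; points are the libraries of E9 Het, E13 Het and E13 KO epidermis, and the bar beside each group is the mean with its SD (n = 3). Postn and Gjb2 are high in both E13 groups, Lin28a is near 0 in both, Col18a1 is low only in the KO libraries plotted, and Krt5 is high only in the E13 Het libraries plotted.

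After Postn and Hic1, the smallest p-values among higher genes belonged to Gjb2, Svil and Gjb6. Gjb2 and Gjb6 encode connexins 26 and 30, which form channels between keratinocytes, and their start windows lie 28909 bases apart on chromosome 14. Their promoters (RefSeq, GRCm38.p6, 250 bases before to 50 after the start, 5′ to 3′ on the minus strand) are printed because the genes moved together. Capitals mark the match to the AP-2 site GCCNNNGGC, the motif bound by the Tfap2 factors described further on; it lies 124 bases before the start of Gjb2.
Gjb2 (chr14:57104653-57104952): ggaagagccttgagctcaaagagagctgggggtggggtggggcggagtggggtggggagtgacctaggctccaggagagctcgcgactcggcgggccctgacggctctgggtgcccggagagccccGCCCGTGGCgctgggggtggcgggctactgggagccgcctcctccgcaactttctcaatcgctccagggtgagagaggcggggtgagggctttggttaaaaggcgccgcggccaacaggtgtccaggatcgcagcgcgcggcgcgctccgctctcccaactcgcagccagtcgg
Gjb6 (chr14:57133562-57133861): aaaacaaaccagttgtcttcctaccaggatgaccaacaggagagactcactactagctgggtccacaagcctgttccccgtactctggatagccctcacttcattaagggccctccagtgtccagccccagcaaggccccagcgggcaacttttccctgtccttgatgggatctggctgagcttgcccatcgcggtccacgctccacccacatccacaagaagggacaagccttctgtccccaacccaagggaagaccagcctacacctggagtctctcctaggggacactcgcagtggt

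Searched on both strands, the Gjb6 window has no match to GCCNNNGGC, and neither window holds TGANTCA, the AP-1 site, or TATAAA, the TATA box. Of the windows printed further on, that of Cyp1b1, a gene that fell in KO, has a match to GCCNNNGGC 177 bases before its start. It is not in capitals there, and the Tiparp window has none. Matches to GCCNNNGGC occur in 16.6% of the 32851 promoter windows of this length, to TGANTCA in 7.81% and to TATAAA in 13.6%. The GC content is 70.0% for Gjb2 and 57.3% for Gjb6. A match only says that these letters are present.

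Gjb2 stood at 12.2, 15.5 and 11.8 CPM at E9, 1166, 1007 and 1362 in E13 Het and 1029, 708 and 1394 in E13 KO. Both E13 groups lay far above E9 and overlapped each other. Gjb2 rose by 6.30 ± 0.27 (adjusted p = 3.40e-08) in KO and by 6.48 ± 0.27 (adjusted p = 2.19e-08) in Het (difference -0.18 ± 0.21, adjusted p = 0.868). Gjb6 went from 2.44, 2.10 and 4.43 CPM to 160.4, 104 and 129.8 in KO and 184, 181 and 189 in Het. Its changes were 5.49 ± 0.30 (adjusted p = 8.02e-08) and 5.98 ± 0.31 (adjusted p = 3.25e-08), with a difference of -0.49 ± 0.23 (adjusted p = 0.452). Svil encodes supervillin, an actin and membrane-binding protein; it rose from 147, 118 and 153 CPM to 1201, 994 and 921 in KO (2.90 ± 0.15, adjusted p = 5.47e-08) and changed by 3.13 ± 0.15 (adjusted p = 2.19e-08) in Het. No difference between KO and Het was called for these 3 genes.

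Genes of the early embryo fell in KO epidermis and in Het epidermis. Of 20 early embryonic regulators, 15 were tested; 8 fell and none rose in KO (53.3%, against 3.05% lower over all genes), with a median log2 fold change of -1.86 against 0.01 over all genes. In Het 7 of the 15 fell. The 8 were Lin28a, Sall4, Igf2bp1, Hmga2, Sall1, Nr6a1, Arid3b and Mycn, and 6 or 7 of the list were called lower when any 1 library was left out. Hmga2 lost its call without E9 Het 1, E9 Het 2 or E13 KO 1, and Mycn kept its call only without E13 KO 1 (highest adjusted p = 0.0734 and 0.0965). The shares of 4.62% higher and 3.05% lower over all genes are also the background of the other list counts in KO. For list counts in Het the background is 4.77% higher and 2.53% lower. For KO against Het at E13 it is 0.835% higher and 1.36% lower. All lists were chosen with earlier results of these data known, so a share above the background is no test of a list.

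Lin28a encodes an RNA-binding protein that blocks maturation of let-7 microRNAs. It had 412, 419 and 535 CPM in the E9 libraries, 0.649, 2.14 and 0 in KO and 0, 0.527 and 0.737 in E13 Het. Both E13 groups were close to 0. The log2 fold change in KO was -8.67 ± 0.54 (adjusted p = 3.76e-06) and moved to -10.06 without E13 KO replicate 2; in Het it was -9.87 ± 0.59 (adjusted p = 2.84e-06). Lin28b, its relative, had 152, 123 and 127 CPM at E9 and 9.24, 22.6 and 0 in KO, a spread that left it uncalled (-3.60 ± 1.33, adjusted p = 0.175).

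Sall4 and Sall1 encode zinc-finger factors of embryonic progenitors. Sall4 went from 169.9, 215 and 159 CPM to 7.62, 2.85 and 0 (-5.60 ± 0.83, adjusted p = 0.00323; -6.73 without E13 KO replicate 1), and Sall1 from 139, 128 and 119.9 to 0, 3.27 and 0 (-6.66 ± 1.07, adjusted p = 0.00501; -12.43 without E13 KO replicate 2). Igf2bp1, an mRNA-binding protein of fetal tissue, stayed abundant but fell from 988, 1099 and 994 CPM to 389.6, 365 and 460.3 (-1.34 ± 0.13, adjusted p = 2.54e-05), with 526, 430.2 and 459 in E13 Het. The log2 fold change of Arid3b was -3.99 ± 0.47 (adjusted p = 3.33e-04) and that of the orphan nuclear receptor gene Nr6a1 -2.50 ± 0.30 (adjusted p = 1.25e-04); in Het their changes were -3.86 ± 0.46 and -2.83 ± 0.30. Greb1l, outside the list, was also among the lower genes, with 167, 187 and 198 CPM at E9, 20.96, 10.7 and 11.6 in E13 Het and 12.3, 16.7 and 19.3 in KO (-3.52 ± 0.31, adjusted p = 8.56e-06). None of these genes differed between KO and Het at E13 by a call.

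The de novo DNA methyltransferases changed in opposite directions, in both genotypes. Of 9 tested, 3 rose and 1 fell in KO (4.62% and 3.05% over all genes). Dnmt3b, the early form, had 143, 171 and 199 CPM at E9 and 48.5, 49.1 and 65.4 in KO, and fell by 1.66 ± 0.22 (adjusted p = 3.42e-04). Dnmt3a, the later one, rose from 201, 175 and 177 to 645, 641 and 717 (1.86 ± 0.13, adjusted p = 1.16e-06). In E13 Het the values were 47.4, 58.02 and 48.5 for Dnmt3b (-1.73 ± 0.22) and 552, 591 and 512 for Dnmt3a (1.58 ± 0.13). The demethylation enzyme gene Tet3 rose by 1.05 ± 0.13 (adjusted p = 1.85e-04) in KO. Tet2 rose by 0.70 ± 0.18 (adjusted p = 0.0261), a call that was lost without E9 Het 2, E9 Het 4 or any of the 3 KO libraries (highest adjusted p = 0.0875). Dnmt1, the maintenance enzyme, had 505, 507 and 570.3 CPM at E9 and 604, 548 and 489 in KO (0.05 ± 0.13, adjusted p = 0.899).

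A list of 10 transcriptional repressors held the Hic, Bcl11 and Cux families together with Prdm1, Zeb1, Zeb2 and Bcl6. Of these 10, 6 rose in KO (60%, against 4.62% over all genes) and none fell, while 5 rose in Het. The list starts with Hic1, a proposed marker of the comparison, and was chosen with earlier results of these data known. Its share is therefore a description and no test. The median log2 fold change in KO was 1.99. In KO the count was 4 or 5 when any 1 library was left out. Of the 6 (Hic1, Bcl11b, Bcl11a, Cux1, Cux2 and Bcl6), Cux2 kept its call only without E13 KO 2 and Bcl6 only without E9 Het 1 or E9 Het 4 (highest adjusted p = 0.108 and 0.122). Bcl11b and Bcl11a encode zinc-finger repressors of which the former is known for its part in skin development. Bcl11b went from 28.4, 13.4 and 12.6 CPM to 337, 299 and 384 in KO and 639, 623 and 521 in E13 Het, so that KO lay below Het without overlap. Its changes were 4.21 ± 0.28 (adjusted p = 1.87e-06) in KO and 5.01 ± 0.29 (adjusted p = 4.65e-07) in Het, and the difference between them (-0.80 ± 0.24, adjusted p = 0.1403) was not called. Bcl11a rose from 4.89, 0.765 and 0 to 99.4, 128 and 101 CPM (5.67 ± 0.69, adjusted p = 0.00123; 7.91 without E9 Het replicate 1), with 359.5, 316 and 214 in E13 Het. Cux1, a homeodomain factor, rose by 1.14 ± 0.14 (adjusted p = 1.85e-04).

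Factors of the AP-2, grainyhead, Msx and related families split. Of 21 epithelial transcription factors tested, 4 rose (Tfap2b, Grhl1, Gata3 and Elf3) and 2 fell (Msx1 and Msx2) in KO; the same numbers were called in Het. The number higher ranged from 2 to 5 when any 1 library was left out, and was 2 without E9 Het 1, E9 Het 2, E13 KO 1 or E13 KO 2. Each of these 4 ended the calls of Gata3 and Elf3. Elf3 was also lost without E9 Het 4 (highest adjusted p = 0.141 and 0.216). Tfap2b, an AP-2 factor, rose from 291, 305 and 209.8 CPM to 942, 1014 and 1121 in KO (1.93 ± 0.16, adjusted p = 4.23e-06) and 1079, 951 and 851 in E13 Het (1.84 ± 0.16, adjusted p = 6.49e-06). Grhl1, a grainyhead factor of desmosome genes, rose from 15.9, 11.3 and 8.13 to 62.9, 65.9 and 78.99 (2.55 ± 0.35, adjusted p = 3.60e-04), with 43.7, 32.04 and 36.9 in E13 Het.

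Msx1 and Msx2, homeobox genes downstream of BMP signals, were down in both genotypes. Msx2 fell from 166, 152 and 101 CPM to 23.5, 19.2 and 16.5 (-2.82 ± 0.31, adjusted p = 5.25e-05). Msx1 fell from 159, 169 and 132 to 24.5, 7.97 and 9.38 (-3.45 ± 0.41, adjusted p = 1.25e-04; -4.16 without E13 KO replicate 1). Tfap2a and Grhl2, which are expressed throughout surface ectoderm, were uncalled, with -0.57 ± 0.20 (adjusted p = 0.0995) and -0.18 ± 0.14 (adjusted p = 0.542). Grhl3, a driver of barrier formation, was uncalled in KO (1.05 ± 0.32, adjusted p = 0.06503) and rose in Het (2.45 ± 0.33, adjusted p = 4.38e-04); the changes differed by -1.40 ± 0.32 (adjusted p = 0.0371). That difference was lost without E9 Het 1, E13 Het 1, E13 Het 3 or any 1 KO library (highest adjusted p = 0.167).

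In the aryl hydrocarbon receptor pathway the receptor rose while 2 of its targets fell. The receptor pairs with the Arnt protein and binds sites with the core GCGTG; Cyp1b1, an oxidising enzyme, and Tiparp, an ADP-ribosyltransferase that damps the receptor, are textbook targets. Their promoters are shown with that core in capitals, here CACGC because it lies on the opposite strand; it is 76 bases before the start in Cyp1b1 and 170 in Tiparp.
Cyp1b1 (chr17:79715012-79715311, minus strand): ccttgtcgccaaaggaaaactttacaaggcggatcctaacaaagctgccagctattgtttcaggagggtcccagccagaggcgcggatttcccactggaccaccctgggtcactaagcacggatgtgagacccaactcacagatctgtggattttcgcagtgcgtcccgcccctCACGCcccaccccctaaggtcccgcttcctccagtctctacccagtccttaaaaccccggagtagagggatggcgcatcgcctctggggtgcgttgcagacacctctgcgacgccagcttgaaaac
Tiparp (chr3:65528197-65528496, plus strand): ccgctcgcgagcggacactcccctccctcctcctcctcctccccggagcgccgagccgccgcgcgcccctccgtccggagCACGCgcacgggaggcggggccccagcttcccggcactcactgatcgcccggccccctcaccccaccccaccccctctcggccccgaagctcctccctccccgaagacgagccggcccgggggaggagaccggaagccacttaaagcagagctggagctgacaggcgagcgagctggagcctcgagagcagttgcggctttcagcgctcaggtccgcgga

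The core occurs, on either strand, in 32.4% of the 32851 windows, the Gjb6 window among them. Of 11 pathway genes, 6 were tested; Ahr and Arnt rose in KO, and Cyp1b1, Tiparp and Arnt2 fell. Arnt2 lost its call whichever library was left out (highest adjusted p = 0.159). Arnt rose from 104, 81.1 and 90.1 CPM to 178, 178 and 198 (1.01 ± 0.18, adjusted p = 0.00299). Cyp1b1 went from 59.3, 81.5 and 64.5 CPM to 9.98, 14.2 and 11.4 in E13 Het and 2.76, 4.70 and 0 in KO, where all 3 libraries were below every Het library. The change was -4.69 ± 0.73 (adjusted p = 0.00127) in KO (-5.46 without E13 KO replicate 2) and -2.52 ± 0.65 (adjusted p = 0.0315) in Het. Tiparp fell from 126, 127 and 94.8 to 45.2, 31.7 and 27.8 CPM (-1.73 ± 0.32, adjusted p = 0.00389), and its change in Het was -1.15 ± 0.32 (adjusted p = 0.0399). The repressor gene Ahrr was near 0 throughout, with 5 counts in E9, 27 in E13 Het and 9 in E13 KO libraries. Differences between KO and Het for Cyp1b1 (-2.17 ± 0.68, adjusted p = 0.154) and Tiparp (-0.58 ± 0.32, adjusted p = 0.553) were not called. The Het call of Cyp1b1 was lost whichever of its 6 libraries was left out, and that of Tiparp without any but E13 Het 3 (highest adjusted p = 0.147 and 0.148). Tiparp overlaps another annotated gene, 4931440P22Rik.

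Matrix genes beyond Postn and Col18a1 rose in part. Of 27 matrix glycoproteins tested, 4 rose (Postn, Fbln2, Sparc and Smoc2) and Hspg2 fell in KO, and 6 rose and 5 fell in Het. Hspg2 kept its call only without E9 Het 1 or E13 KO 3 (highest adjusted p = 0.122). Sparc, a collagen-binding matrix protein, rose from 141, 122 and 204 CPM to 595, 502 and 481 (1.76 ± 0.19, adjusted p = 5.14e-05), with 484, 501 and 614 in E13 Het. Fbln2 (fibulin 2) rose far less in KO than in Het: its level was 27.6, 26.97 and 33.7 CPM at E9, 61.9, 54.5 and 55.97 in KO and 316, 340.3 and 488 in E13 Het. The changes were 0.97 ± 0.20 (adjusted p = 0.00866) and 3.70 ± 0.22 (adjusted p = 1.33e-07), differing by -2.73 ± 0.21 (adjusted p = 4.66e-06); the KO call was lost without E9 Het replicate 1 (adjusted p = 0.0504). Smoc2 rose by 3.67 ± 0.73 (adjusted p = 0.02601) in KO, a call lost without E9 Het replicate 2 or any 1 KO library (highest adjusted p = 0.118), and its value was 4.54 without E9 Het replicate 4. Fn1 (fibronectin) had 1475, 1421 and 1453 CPM at E9, 174, 443 and 289 in E13 Het and 584, 756 and 334 in KO; its change was -2.26 ± 0.37 (adjusted p = 0.006399) in Het and -1.38 ± 0.36 (adjusted p = 0.0528), uncalled, in KO, and the Het call was lost without E13 Het 3 (adjusted p = 0.0535). Tenascin C, encoded by Tnc, was uncalled (1.08 ± 1.22, adjusted p = 0.725).

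Of 24 collagens tested, Col14a1, Col5a1, Col5a2 and Col3a1 rose and Col18a1 and Col2a1 fell in KO. The call of Col2a1 was lost whichever library was left out (highest adjusted p = 0.142). The fibril-associated Col14a1 went from 5 counts over the E9 libraries to 69.9, 92.5 and 65.1 CPM (7.80 ± 0.81, adjusted p = 5.25e-05; 11.72 without E9 Het replicate 2 and 7.10 without E9 Het replicate 1), with 29.9, 61.8 and 22.9 in E13 Het. Col5a1, which starts collagen fibrils, rose from 114, 129 and 100.2 to 284, 360.3 and 319.6 CPM (1.49 ± 0.17, adjusted p = 8.13e-05). Col5a2 rose from 62.6, 47.4 and 36.4 to 259, 322 and 114 (2.24 ± 0.38, adjusted p = 0.00501). Col3a1 rose from 17.1, 14.3 and 36.2 to 634, 980.2 and 931 CPM (5.25 ± 0.84, adjusted p = 0.0119), a call that was lost without E9 Het replicate 1 or 2 (highest adjusted p = 0.0685); in E13 Het it had 83.6, 405 and 81.7 CPM. The basement membrane chains Col4a1 (-0.37 ± 0.18, adjusted p = 0.271) and Col4a2 (-0.81 ± 0.28, adjusted p = 0.107), which overlap in the annotation, were uncalled.

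These matrix genes are also genes of dermal fibroblasts, so dermal markers are given beside them. Of 19 dermal mesenchyme genes tested, 4 rose in KO (Postn, Col3a1, Dcn and Vim) and Crabp1 fell. The Crabp1 call was kept only without E13 KO 2 (highest adjusted p = 0.135). The median log2 fold change was 2.50, with fitted values replaced by bounds where E9 had no counts. The summed level of 21 such genes without Postn was 490 to 580 CPM in the E9 libraries, 525 to 1703 in E13 Het, 1287 to 2568 in KO and 24171 to 40310 in dermis. In KO epidermis Postn stood at 64.0% of its mean dermal level, Hic1 at 104% and Smoc2 at 209%, Sparc at 41.0% and Col14a1 at 30.2%. In E13 Het epidermis the same 5 genes stood at 62.1%, 64.9%, 186%, 41.5% and 15.2%. Other mesenchyme genes stood lower in KO: Vim at 14.3%, Prrx1 at 11.4% and Pdgfra, which encodes CD140a, at 8.92%. Col3a1 stood at 8.04%, Col1a1 at 3.58%, Dcn at 2.73%, Lum at 0.926% and Twist2 at 0.819%. In E13 Het the levels were 17.3% for Vim, 3.43% for Prrx1, 5.02% for Pdgfra and 1.8% for Col3a1. They were 2.59% for Col1a1, 6.13% for Dcn, 0.611% for Lum and 1.04% for Twist2. Vim, Dcn and Twist2 were thus lower in KO than in E13 Het, and the others higher. Dermal libraries were prepared from oligo(dT)-selected RNA, so these percentages compare libraries of different preparation. They also set scaled epidermal CPM against unscaled dermal CPM. Counts of Rn45s, a ribosomal RNA precursor, made up 11.19 to 30.72% of each dermal library. With Rn45s left out of unscaled totals in both tissues, a choice made after seeing the data, the KO levels were 53.8% for Postn, 88.9% for Hic1, 180% for Smoc2, 35.0% for Sparc and 25.8% for Col14a1. How much mesenchymal RNA contributed to the rises was not tested.

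Pdgfra itself was uncalled, with 49.8, 22.00 and 27.6 CPM at E9 and 46.7, 94.7 and 35.5 in KO (0.83 ± 0.55, adjusted p = 0.452), as was Col1a1, with 71.5, 40.2 and 18.7 CPM at E9 and 148, 498 and 94.9 in KO (2.50 ± 1.15, adjusted p = 0.288). Twist2 had no counts at E9 and 3.41, 4.84 and 0 CPM in KO. Vim rose by 1.17 ± 0.25 (adjusted p = 0.00896). Dcn (decorin) had no counts at E9, 12.5, 43.4 and 23.3 CPM in KO and 23.2, 102 and 52.7 in E13 Het, so it was at least 147-fold higher in KO than at E9 (adjusted p = 2.63e-04; floor of 3 counts over the E9 group) and at least 358-fold higher in E13 Het.

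**Figure D3:**
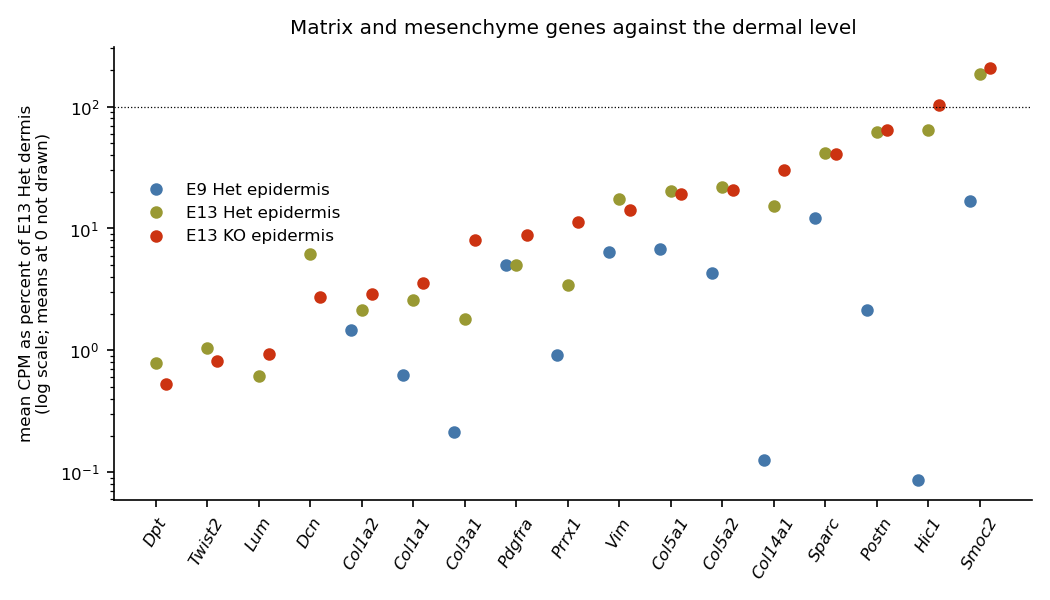
Mean CPM in each epidermal group as a percentage of the mean in E13 Het dermis (y axis, log scale) for 17 matrix and mesenchyme genes (x axis), each mean over 3 libraries; means at 0 are not drawn and the dotted line marks 100%. Postn, Hic1 and Smoc2 in E13 KO lie between 64.0% and 209% of dermis, whereas Dcn, Twist2, Lum and Dpt lie below 3%.

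Many genes of the basal layer did not reach their Het level in KO. Of 23 keratin, hemidesmosome and basement membrane genes, 3 rose and 6 fell in KO. In Het 10 rose (43.5%, against 4.77% over all genes) and 2 fell (8.7%, against 2.53%). At E13, 9 were lower in KO than in Het (39.1%, against 1.36%). Krt5, the basal keratin, had 52.9, 36.5 and 32.8 CPM at E9, 1427, 1102 and 1467 in E13 Het and 47.3, 20.6 and 43.5 in KO. The KO libraries overlapped those of E9. Krt5 rose by 5.02 ± 0.32 (adjusted p = 5.78e-06) in Het, its value in KO was -0.15 ± 0.29 (adjusted p = 0.8604), and the difference was -5.17 ± 0.33 (adjusted p = 9.36e-06). Its partner Krt14 had 5.65, 14.2 and 0 CPM at E9 and 39.9, 6.97 and 1.14 in KO (1.28 ± 1.28, adjusted p = 0.681; -0.58 without E13 KO 1 and 2.36 without E9 Het 2), against 1043, 875 and 568 in E13 Het (6.92 ± 1.43, adjusted p = 0.0379; 8.01 without E9 Het 2, and lost whichever of the 6 libraries was left out, highest adjusted p = 0.154).

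Itgb4, the β4 integrin of hemidesmosomes, rose in KO to a level well short of that in Het: 10.5, 14.3 and 15.3 CPM at E9, 81.2, 60.9 and 74.7 in KO and 486, 396 and 297 in E13 Het. The changes were 2.44 ± 0.23 (adjusted p = 1.78e-05) and 4.88 ± 0.25 (adjusted p = 3.25e-08), and they differed by -2.44 ± 0.22 (adjusted p = 2.26e-05). Fras1, an extracellular matrix protein of the embryonic basement membrane, rose in both genotypes without a called difference, from 800.3, 813 and 796 CPM to 1959, 1715 and 2225 in KO (1.29 ± 0.13, adjusted p = 2.75e-05) and 1959, 2057 and 2588 in E13 Het (1.45 ± 0.13, adjusted p = 1.03e-05; difference -0.16 ± 0.13, adjusted p = 0.738). Fermt1 and Itga3 fell. Fermt1, which encodes the integrin activator kindlin 1, had 149, 185 and 131 CPM at E9, 196, 189 and 152 in E13 Het and 30.8, 30.3 and 25.3 in KO. It fell by 2.42 ± 0.21 (adjusted p = 7.74e-06) in KO, had a value of 0.21 ± 0.20 (adjusted p = 0.664) in Het, and differed by -2.63 ± 0.21 (adjusted p = 7.48e-06). The α3 integrin gene Itga3 fell in both genotypes (-1.53 ± 0.18, adjusted p = 1.04e-04 in KO and -0.68 ± 0.18, adjusted p = 0.02996 in Het), with a difference of -0.85 ± 0.18 (adjusted p = 0.0195). For Itga3 the difference was lost without E13 KO 2 or E13 Het 1 (highest adjusted p = 0.0697), and the Het call without any 1 E9 library or E13 Het 2 (highest adjusted p = 0.118). In bulk RNA, fewer cells of a type and less RNA per cell cannot be told apart, here or for any gene described.

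Of 18 desmosome and adherens junction genes, Pvrl4, Pkp3, Jup and Dsg3 rose in KO and none fell; 7 rose and 1 fell in Het. Pvrl4 (nectin 4) rose from 15.7, 12.6 and 19.5 CPM to 173, 122 and 150.02 (3.22 ± 0.34, adjusted p = 5.25e-05) and Pkp3 (plakophilin 3) from 31.01, 20.1 and 38.4 to 141, 71.2 and 97.5 (1.79 ± 0.30, adjusted p = 0.00163); neither differed from Het by a call. Dsp, the desmosomal plaque protein desmoplakin, did not follow them: it had 654, 567 and 543 CPM at E9, 755, 645 and 525 in KO (0.13 ± 0.15, adjusted p = 0.732) and 2262, 1813 and 2408 in E13 Het (1.88 ± 0.15, adjusted p = 5.31e-06), and the changes differed by -1.75 ± 0.15 (adjusted p = 1.53e-05). Dsg3 (desmoglein 3) had no counts at E9, 42 in KO and 831 in E13 Het, at least 13.3-fold and at least 258-fold higher than E9. KO was below Het (adjusted p = 0.0376). That call was lost without E13 KO 2 or any 1 E13 Het library (highest adjusted p = 0.166), and the log2 difference was -5.57 without E13 KO 1 against -4.56 ± 0.98 with it. The KO calls of Jup (plakoglobin; 1.04 ± 0.25, adjusted p = 0.02003) and Dsg3 (adjusted p = 0.0352) were lost without E9 Het 1, E9 Het 2 or E13 KO 1, and also without E13 KO 3 for Jup, and E9 Het 4 or E13 KO 2 for Dsg3 (highest adjusted p = 0.11 and 0.118). The cadherins Cdh1 (0.50 ± 0.15, adjusted p = 0.06002) and Cdh3 (-0.24 ± 0.21, adjusted p = 0.588) were uncalled.

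Of 22 simple-epithelium genes tested, 2 were higher in KO than in Het at E13 (9.09%, against 0.835% over all genes), Epcam among them. Between E9 and E13, Epcam, Cldn4 and Ocln rose and Tjp1 fell in KO, while none rose and 5 fell in Het. Epcam, a cell surface protein of simple epithelia, had 252, 259.5 and 282 CPM at E9, 562, 459 and 503 in KO and 226, 199.8 and 243 in E13 Het. The KO libraries were above all others; Epcam rose by 0.94 ± 0.14 (adjusted p = 8.52e-04), its value in Het was -0.25 ± 0.14 (adjusted p = 0.377), and they differed by 1.19 ± 0.14 (adjusted p = 3.10e-04). The tight junction gene Cldn4 (claudin 4) had 135, 112 and 126 CPM at E9, 319, 177 and 279.6 in KO (1.06 ± 0.28, adjusted p = 0.03302) and 113, 89.8 and 195 in E13 Het, and its KO call was kept only without E13 KO 2 (highest adjusted p = 0.142). Krt8 had 336, 419 and 692 CPM at E9, 1129, 714 and 905 in KO and 74.6, 23.2 and 679 in E13 Het, and its partner Krt18 had 419, 429.6 and 449 at E9, 969, 692 and 815 in KO and 32.4, 27.8 and 446 in E13 Het. Every KO library exceeded every E9 library for both, but E13 Het replicate 3 stood far above the other Het libraries and the values in KO were uncalled (0.92 ± 1.12, adjusted p = 0.7502 and 0.93 ± 1.04, adjusted p = 0.724). The other tight junction genes Ocln (2.17 ± 0.53, adjusted p = 0.0261) and Tjp1 (-0.64 ± 0.16, adjusted p = 0.0197) lost their calls when libraries were left out: Ocln in each of the 6 refits, and Tjp1 without E9 Het 1, E9 Het 2 or E13 KO 1 (highest adjusted p = 0.126 and 0.0903).

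Suprabasal and periderm genes were few and thinly counted. Of 21, 9 were tested, and Krt4 and Evpl rose in KO against 5 in Het. Krt4 had no counts at E9, 119 in KO (at least 37.6-fold higher, adjusted p = 0.0208) and 202 in E13 Het. Evpl (envoplakin) changed by 1.70 ± 0.44 (adjusted p = 0.0406) in KO. Neither call held in every refit: Evpl was lost whichever library was left out, and Krt4 without E9 Het 1, E9 Het 2 or E13 KO 1 (highest adjusted p = 0.158 and 0.07). Sfn (14-3-3σ) had 113, 98.5 and 86.2 CPM at E9, 151, 104 and 42.6 in KO (0.01 ± 0.35, adjusted p = 0.994) and 402, 289 and 318 in E13 Het (1.76 ± 0.36, adjusted p = 0.0127), a difference of -1.75 ± 0.36 (adjusted p = 0.0302). For Sfn the difference held only without E13 KO 1 or E13 KO 3 among 9 refits, and the Het call was lost without any 1 E9 library or E13 Het 1 (highest adjusted p = 0.126 and 0.0706). Krt1 had 11 counts in KO and 190 in E13 Het, and Krt10 6 and 225.

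**Figure D4:**
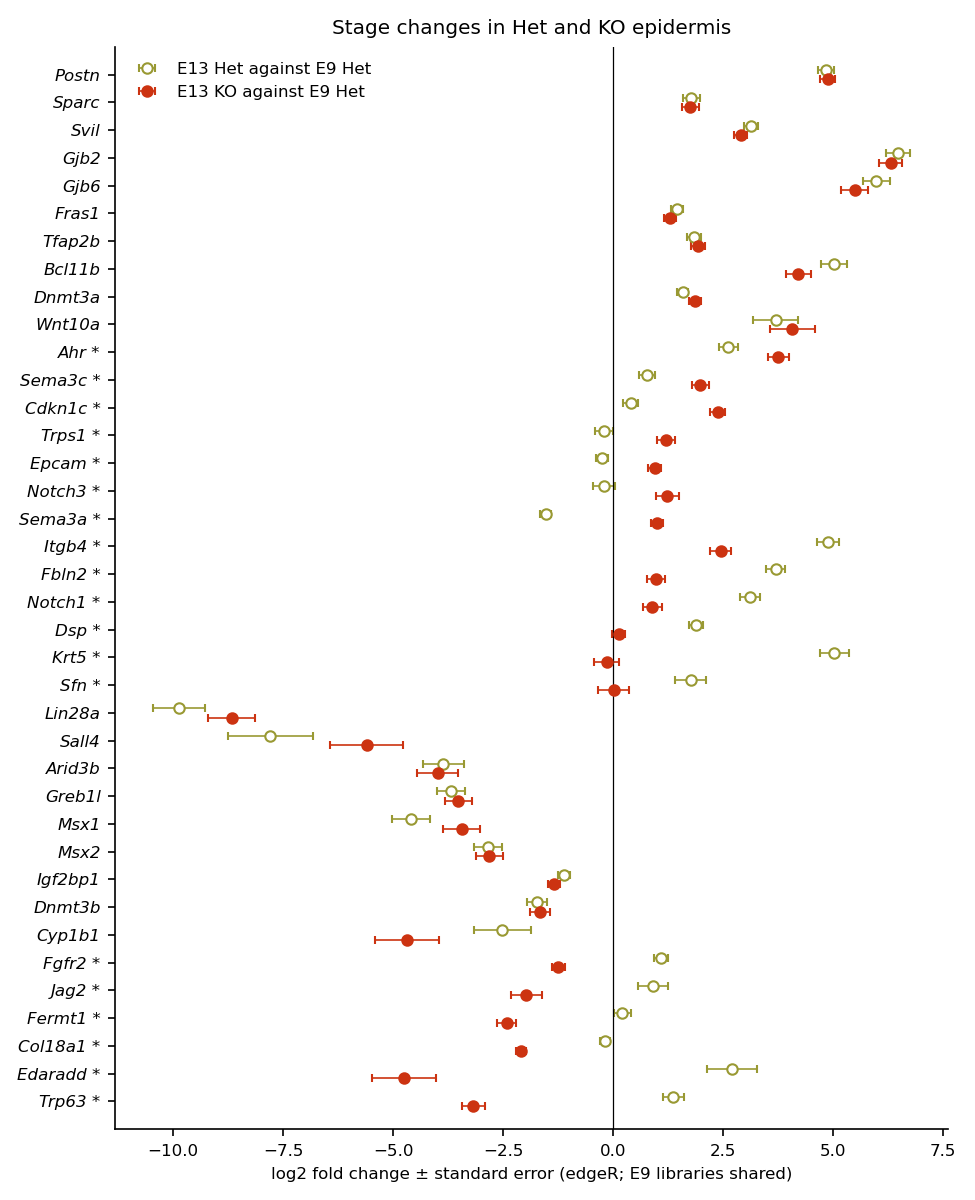
Log2 fold change with standard error (x axis) for 38 genes (y axis) from the edgeR fit; open circles are E13 Het against E9 Het and filled circles E13 KO against E9 Het, which share the E9 libraries. An asterisk marks genes whose 2 changes differ (E13 KO against E13 Het, adjusted p under 0.05); Postn, Gjb2 and Lin28a carry none, while Trp63, Sema3a, Fgfr2 and Edaradd carry one and lie on opposite sides of 0.

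In signalling pathways, receptors and ligands differed in whether KO followed Het. Among 15 Notch genes, Notch1 and Notch3 rose and Jag2 fell in KO; 5 rose and none fell in Het. The receptor gene Notch1 had 70.6, 74.4 and 89.4 CPM at E9, 161, 102 and 171 in KO and 881, 594 and 549 in E13 Het (0.89 ± 0.22, adjusted p = 0.0243 and 3.11 ± 0.23, adjusted p = 2.67e-06; difference -2.22 ± 0.23, adjusted p = 6.80e-05). Notch3 was instead highest in KO, with 124, 163 and 157 CPM at E9, 411, 317 and 314 in KO and 139, 73.4 and 171 in E13 Het (1.23 ± 0.26, adjusted p = 0.00967 in KO; difference 1.44 ± 0.26, adjusted p = 0.00858). The ligand gene Jag2 went from 154, 159.7 and 129.5 CPM to 23.02, 24.2 and 67.6 in KO (-1.97 ± 0.36, adjusted p = 0.00541; -2.65 without E13 KO replicate 3), below every Het library of either stage (314, 274 and 244 in E13 Het; difference -2.88 ± 0.37, adjusted p = 0.00135). The ligand Dll1 and the Notch target Nrarp were uncalled in KO (-0.54 ± 0.42 and -1.13 ± 0.48) and lower than in E13 Het (-2.76 ± 0.43, adjusted p = 0.00275, and -2.99 ± 0.50, adjusted p = 0.00457). The KO calls of Notch1 and Notch3 were lost without E9 Het 1 or E13 KO 1, and that of Notch1 also without E9 Het 2 or E13 KO 3 (highest adjusted p = 0.118 and 0.063). The difference of Notch3 from Het was lost without E9 Het 4 and E13 KO 3 together (adjusted p = 0.0658), and that of Jag2 was -3.57 without E13 KO 3.

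Of 33 Wnt pathway genes tested, Wnt10a, Wnt3 and Wnt7b rose (9.09%, against 4.62% over all genes) and Fzd1 and Fzd10 fell (6.06%, against 3.05%) in KO. These shares lie near the background. In Het, 13 rose (39.4%, against 4.77% over all genes) and 2 fell (6.06%, against 2.53%). At E13, 7 were lower in KO than in Het (21.2%, against 1.36%). Wnt10a, a ligand of epidermis and placodes, rose from 1.37, 3.06 and 5.42 CPM to 59.8, 38.9 and 63.6 in KO and 33.7, 34.7 and 56.4 in Het (4.07 ± 0.51, adjusted p = 1.85e-04 and 3.69 ± 0.50). Wnt3 rose from 86.2, 50.3 and 26.3 to 256, 187 and 284 (2.15 ± 0.34, adjusted p = 0.00189), and the receptor gene Fzd1 fell from 99.4, 128 and 82.99 to 19.3, 26.8 and 16.5 (-2.30 ± 0.35, adjusted p = 8.73e-04). Wnt3 overlaps Wnt9b in the annotation. Fzd10 lost its call without E9 Het 1, E9 Het 2 or E13 KO 2 (highest adjusted p = 0.145). Wnt7b changed by 1.30 ± 0.34 (adjusted p = 0.0367), which was lost without E9 Het 1, E9 Het 4, E13 KO 1 or E13 KO 3 (highest adjusted p = 0.13). The pathway's target Axin2 (0.26 ± 0.21, adjusted p = 0.545), its nuclear factor Lef1 (0.67 ± 0.23, adjusted p = 0.0983) and the ligand Wnt6 (0.10 ± 0.23, adjusted p = 0.886) were uncalled.

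Some genes of TGF-β signalling rose in KO beyond their change in Het. Of 25 genes of BMP, activin and TGF-β signalling tested, 5 rose (20%, against 4.62% over all genes) and 4 fell (16%, against 3.05%). When any 1 library was left out, 4 to 6 were called higher and 1 to 3 lower, with 1 lower without E13 KO 2 and 2 without E9 Het 2 or E13 KO 3. Skil, a SMAD co-repressor, had 133, 139 and 98.3 CPM at E9, 339, 251 and 414 in KO and 152, 180.2 and 218 in E13 Het (1.44 ± 0.21, adjusted p = 7.75e-04; difference 0.86 ± 0.21, adjusted p = 0.0477). Ltbp1, which stores latent TGF-β in matrix, had 67.2, 85.3 and 91.6 CPM at E9, 329.97, 223 and 314 in KO and 61.4, 95.7 and 173 in E13 Het (1.83 ± 0.32, adjusted p = 0.00365; difference 1.39 ± 0.31, adjusted p = 0.0391). The ligand gene Tgfb2 had 60.3, 41.7 and 59.1 CPM at E9, 154, 155 and 129.8 in KO and 37.4, 49.97 and 95.9 in E13 Het (1.44 ± 0.31, adjusted p = 0.009797; difference 1.26 ± 0.31, adjusted p = 0.0488), a call lost without E9 Het replicate 2 (adjusted p = 0.0586). Without E9 Het 4 and E13 KO 3 together the KO calls of Ltbp1 and Tgfb2 were also lost (adjusted p = 0.0564 and 0.055). The differences from Het were less stable: among 9 refits that each left out 1 library, Skil kept its difference only without E9 Het 4, E13 KO 2 or E13 Het 3, Ltbp1 only without E13 KO 2 or E13 Het 3, and Tgfb2 only without E13 Het 3 (highest adjusted p = 0.229, 0.176 and 0.18). Bmpr1b, a BMP receptor, rose in both genotypes (1.78 ± 0.33, adjusted p = 0.00373 in KO and 2.84 ± 0.34 in Het), Acvr2b fell by 1.64 ± 0.31 (adjusted p = 0.004401), and Bmp4 was uncalled (-1.49 ± 0.43, adjusted p = 0.0507). The BMP target Id1 fell by 1.58 ± 0.43 (adjusted p = 0.0354), a call that held only without E13 KO replicate 1 among the 6 refits (highest adjusted p = 0.134).

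Fgfr2, a receptor for fibroblast growth factors that drives keratinocyte growth, moved in opposite directions. It had 494, 544 and 388 CPM at E9, 864, 1170.1 and 981 in E13 Het and 199, 218 and 186 in KO, with no overlap. It rose by 1.08 ± 0.16 (adjusted p = 5.56e-04) in Het and fell by 1.24 ± 0.16 (adjusted p = 2.00e-04) in KO, a difference of -2.32 ± 0.16 (adjusted p = 2.70e-06). Of 16 genes of this pathway tested, 4 fell in KO (Fgfr2, Fgf8, Etv4 and Etv5) and Esrp1 and Esrp2 rose. Fgf8 kept its call only without E13 KO 1 or E13 KO 3 and Esrp2 only without E9 Het 4 (highest adjusted p = 0.164 and 0.134). The FGF-responsive factor Etv5 fell from 87.2, 94.5 and 64.5 CPM to 9.89, 22.8 and 11.4 (-2.47 ± 0.39, adjusted p = 0.00124), with 55.1, 45.6 and 27.3 in E13 Het, and Etv4 fell by 4.07 ± 0.97 (adjusted p = 0.0187) (-5.42 without E13 KO replicate 3). Etv4 lost its call without E9 Het 1, E9 Het 2 or E13 KO 2, and the splicing factor gene Esrp1 (0.74 ± 0.18, adjusted p = 0.0218) kept its call only without E13 KO 2 (highest adjusted p = 0.0929 and 0.0907). Fgfr1 was uncalled in KO (-0.53 ± 0.25, adjusted p = 0.253) and above E13 Het (1.12 ± 0.26, adjusted p = 0.0368), a difference kept only without E9 Het 4 or E13 Het 2 (highest adjusted p = 0.114).

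In the ectodysplasin pathway, which sets up hair placodes, the adaptor gene Edaradd showed the widest called difference between KO and Het of the genes described. It had 8.25, 8.80 and 21.7 CPM at E9, 115, 72.1 and 62.5 in E13 Het and 0.162, 0.996 and 0 in KO, where 8 counts were seen in all. It fell by 4.76 ± 0.72 (adjusted p = 9.21e-04) in KO (-4.16 without E9 Het replicate 4 and -6.70 without E13 KO replicate 2) and rose by 2.69 ± 0.56 (adjusted p = 0.00869) in Het (3.28 without E9 Het 4, and lost without E9 Het 1 or 2, highest adjusted p = 0.0565), a difference of -7.45 ± 0.76 (adjusted p = 6.80e-05) that was -9.38 without E13 KO 2. Of 14 placode and ectodysplasin genes tested, Eda, Trps1 and Tnfrsf19 rose and Edaradd fell in KO, and 6 rose in Het. Tnfrsf19, a receptor of this family, rose from 124, 142 and 102 CPM to 274, 284 and 248 (1.13 ± 0.16, adjusted p = 3.81e-04) and 417, 442 and 384 in Het. Trps1, a GATA-type repressor of hair follicles, rose in KO (172, 112 and 100.2 to 323, 309 and 253 CPM, 1.20 ± 0.20, adjusted p = 0.00204) and not by a call in Het (-0.21 ± 0.20, adjusted p = 0.664; difference 1.41 ± 0.21, adjusted p = 0.00151). The ligand gene Eda rose by 2.18 ± 0.46 (adjusted p = 0.008595) (adjusted p = 0.0543 without E9 Het 4 and E13 KO 3 together), and its receptor Edar was uncalled (1.15 ± 0.42, adjusted p = 0.118).

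Axon guidance genes included semaphorins that were higher in KO than in either Het group. Of 36 tested, 7 rose and 5 fell in KO, and 5 rose and 5 fell in Het. In KO 3 fell without E9 Het 2 or E13 KO 1. Sema3a, a secreted repellent of nerves and vessels, had 401, 357 and 392 CPM at E9, 133, 137 and 127 in E13 Het and 714, 720.3 and 857 in KO, with no overlap. It fell by 1.54 ± 0.13 (adjusted p = 7.09e-06) in Het and rose by 0.99 ± 0.13 (adjusted p = 2.66e-04) in KO, a difference of 2.53 ± 0.14 (adjusted p = 3.56e-07). Sema3c rose in both, from 114, 121 and 131 CPM to 184, 166 and 269.9 in Het and 541, 444 and 461 in KO (1.98 ± 0.19, adjusted p = 1.70e-05; difference 1.22 ± 0.18, adjusted p = 0.00191; the Het call was lost without E9 Het 1, E9 Het 2 or E13 Het 3, highest adjusted p = 0.111). Sema3f rose without a difference called, by 1.68 ± 0.20 (adjusted p = 1.00e-04) in KO and 1.67 ± 0.20 in Het. Epha7, an ephrin receptor, had 18.03, 11.9 and 28.3 CPM at E9, 31.2, 36.00 and 32.1 in E13 Het and 62.1, 122 and 119.9 in KO (2.39 ± 0.37, adjusted p = 0.00104; difference 1.61 ± 0.36, adjusted p = 0.0293, lost without E13 KO 2, E13 KO 3 or any 1 E13 Het library, highest adjusted p = 0.127).

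Imprinted growth genes included the cell cycle inhibitor Cdkn1c (p57), which had 91.04, 83.6 and 99.00 CPM at E9, 116, 110.4 and 134 in E13 Het and 436, 425 and 560.3 in KO. It rose by 2.38 ± 0.17 (adjusted p = 1.17e-06) in KO, its value in Het was 0.40 ± 0.16 (adjusted p = 0.184), and the changes differed by 1.98 ± 0.17 (adjusted p = 1.02e-05). Of 19 imprinted genes tested, Cdkn1c and Plagl1 rose and Grb10 fell. Plagl1, a zinc-finger regulator of other imprinted genes, rose by 1.57 ± 0.32 (adjusted p = 0.00792), with 168, 215 and 67.1 CPM in KO and 154, 156 and 168 in Het. Grb10, a growth inhibitor, fell from 1873, 1855 and 1825 CPM to 985, 900.2 and 864 (-1.01 ± 0.21, adjusted p = 0.0105), a call lost without E13 KO 2 or 3 (highest adjusted p = 0.0561). The abundant Igf2 (-0.88 ± 0.39, adjusted p = 0.262) and H19 (-0.07 ± 0.29, adjusted p = 0.945) were uncalled.

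Of 30 S phase and mitosis genes, 8 fell in KO (26.7%, against 3.05% over all genes) and none rose, with a median log2 fold change of -0.61, and 3 fell in Het. The count was 2 without E9 Het 1, 1 without E9 Het 2, 3 without E9 Het 4, 3 without E13 KO 1, 5 without E13 KO 2 and 6 without E13 KO 3. Bub1b, a spindle checkpoint gene, fell from 234, 249 and 224 CPM to 131, 148 and 125 (-0.81 ± 0.17, adjusted p = 0.00753), while Mki67, the proliferation antigen, had 2029, 2196 and 2104 CPM at E9 and 1608, 2018 and 1539.7 in KO (-0.29 ± 0.13, adjusted p = 0.198). Bub1 (-1.34 ± 0.29, adjusted p = 0.00948) lost its call without E9 Het 2 (adjusted p = 0.0513). Kif11 (-0.96 ± 0.24, adjusted p = 0.0263) and Top2a (-0.65 ± 0.17, adjusted p = 0.02801) kept theirs only without E13 KO 2 among the 6 refits (highest adjusted p = 0.111 and 0.109).

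Of 20 immediate early and heat shock genes, which also respond to tissue dissociation, 5 rose in KO and 7 in Het, with a median log2 fold change of 2.19 in KO. The count in KO was 2 without E9 Het 1 or E9 Het 2, 3 without E9 Het 4, E13 KO 1 or E13 KO 2, and 2 without E9 Het 4 and E13 KO 3 together. Jund rose from 51.02, 50.7 and 47.5 CPM to 142, 98.9 and 141 (1.35 ± 0.26, adjusted p = 0.00492), Atf3 from 3.82, 2.49 and 0.246 to 46.2, 29.9 and 20.5 (3.82 ± 0.79, adjusted p = 0.00808; 4.47 without E9 Het replicate 1) and Fos from 5.04, 5.16 and 1.72 to 321, 115 and 88.1 (5.41 ± 0.87, adjusted p = 0.00898). Fos had 61.6, 151 and 320.4 CPM in E13 Het, and the E13 groups overlapped. Its call was lost without E9 Het 1 or 2 (highest adjusted p = 0.0559), and its value was 4.62 without E13 KO 1. Jund lost its call without E9 Het 4 and E13 KO 3 together (adjusted p = 0.0529). Nr4a1 (3.34 ± 0.81, adjusted p = 0.0205) and Jun (1.99 ± 0.51, adjusted p = 0.0461) were called, but Nr4a1 kept its call only without E13 KO 3 and Jun in none of the 6 refits (highest adjusted p = 0.109 and 0.171); Egr1 was uncalled (4.22 ± 1.04, adjusted p = 0.0566).

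Of 15 interferon-stimulated genes tested, 4 were higher in KO than at E9 (26.7%, against 4.62% over all genes) and none was called in Het, with a median log2 fold change of 1.81 in KO when genes without E9 counts are set at their bound. No gene of the list was called between KO and Het at E13. For Oasl2 that difference was 3.34 ± 1.39 (adjusted p = 0.363). Oasl2 had no counts at E9 and 332 in KO (at least 105-fold higher, adjusted p = 0.0126), Usp18 none and 175 (at least 55.3-fold, adjusted p = 0.0229), and Ifit1 1 and 251 (ratio 238, 95% counting interval 42.3 to 9430, adjusted p = 0.0265). Ifit1 stood at 8.43, 0.996 and 54.6 CPM in the KO libraries, so most of its counts came from replicate 3. Irf9 rose by 1.81 ± 0.45 (adjusted p = 0.0229). Ifit2 was uncalled, with 27.8, 10.1 and 35.7 CPM at E9 and 12.2, 13.8 and 11.4 in KO (-0.98 ± 0.50, adjusted p = 0.287). Leaving out E13 KO 1 ended the calls of Oasl2, Usp18 and Irf9; E9 Het 1 or 2 those of Usp18, Irf9 and Ifit1; E13 KO 3 those of Irf9 and Ifit1; and E9 Het 4 that of Ifit1 (highest adjusted p = 0.0618, 0.105, 0.113 and 0.18). The count of the list was 1 to 4 when any 1 library was left out and 0 without E9 Het 4 and E13 KO 3 together.

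In the remaining lists few members were called. Of 18 p53 targets tested, Plk2 (1.93 ± 0.19, adjusted p = 2.25e-05) and Btg2 (3.68 ± 0.67, adjusted p = 0.00349; 4.67 without E9 Het replicate 1) rose, as they did in Het, and Cdkn1a (-1.80 ± 1.05, adjusted p = 0.379) and Mdm2 (-0.02 ± 0.26, adjusted p = 0.979) were uncalled. Of 15 hypoxia and glycolysis genes, Pdk1 rose (0.84 ± 0.21, adjusted p = 0.0249) and Ldha (-0.83 ± 0.17, adjusted p = 0.00718) and Pkm (-0.53 ± 0.15, adjusted p = 0.04998) fell; none of these 3 was called without E9 Het 4 and E13 KO 3 together (adjusted p = 0.0892, 0.0651 and 0.334). Among 13 hedgehog genes, Gas1 rose (0.67 ± 0.17, adjusted p = 0.0262; difference from Het 0.90 ± 0.17, adjusted p = 0.0101) and Smo fell (-0.61 ± 0.16, adjusted p = 0.0289), and the targets Ptch1 (-2.18 ± 1.03, adjusted p = 0.285) and Gli1 (-1.42 ± 1.07, adjusted p = 0.531) were uncalled. Gas1 lost its call without E9 Het 1, E9 Het 2 or E13 KO 1 and Smo without E9 Het 2, E9 Het 4, E13 KO 1 or E13 KO 2 (highest adjusted p = 0.155 and 0.125). The difference of Gas1 from Het was lost without E13 KO 1 (adjusted p = 0.0725). Pdk1 lost its call without E9 Het 1, E9 Het 4, E13 KO 1 or E13 KO 2, and Pkm kept its call only without E13 KO 1 (highest adjusted p = 0.113 and 0.177). Of 35 Hox and Cdx genes tested, only Cdx1 and Cdx2 were called, both lower in KO, and Cdx1, Cdx2 or both lost the call without E9 Het 1, 2 or 4 or without E13 KO 1 or 2. The summed level of all 42 listed Hox and Cdx genes was 1023, 854 and 263 CPM in the E9 libraries and 522, 547 and 750 in KO. The E9 libraries thus differed among themselves and lay on both sides of KO.

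**Figure D5:**
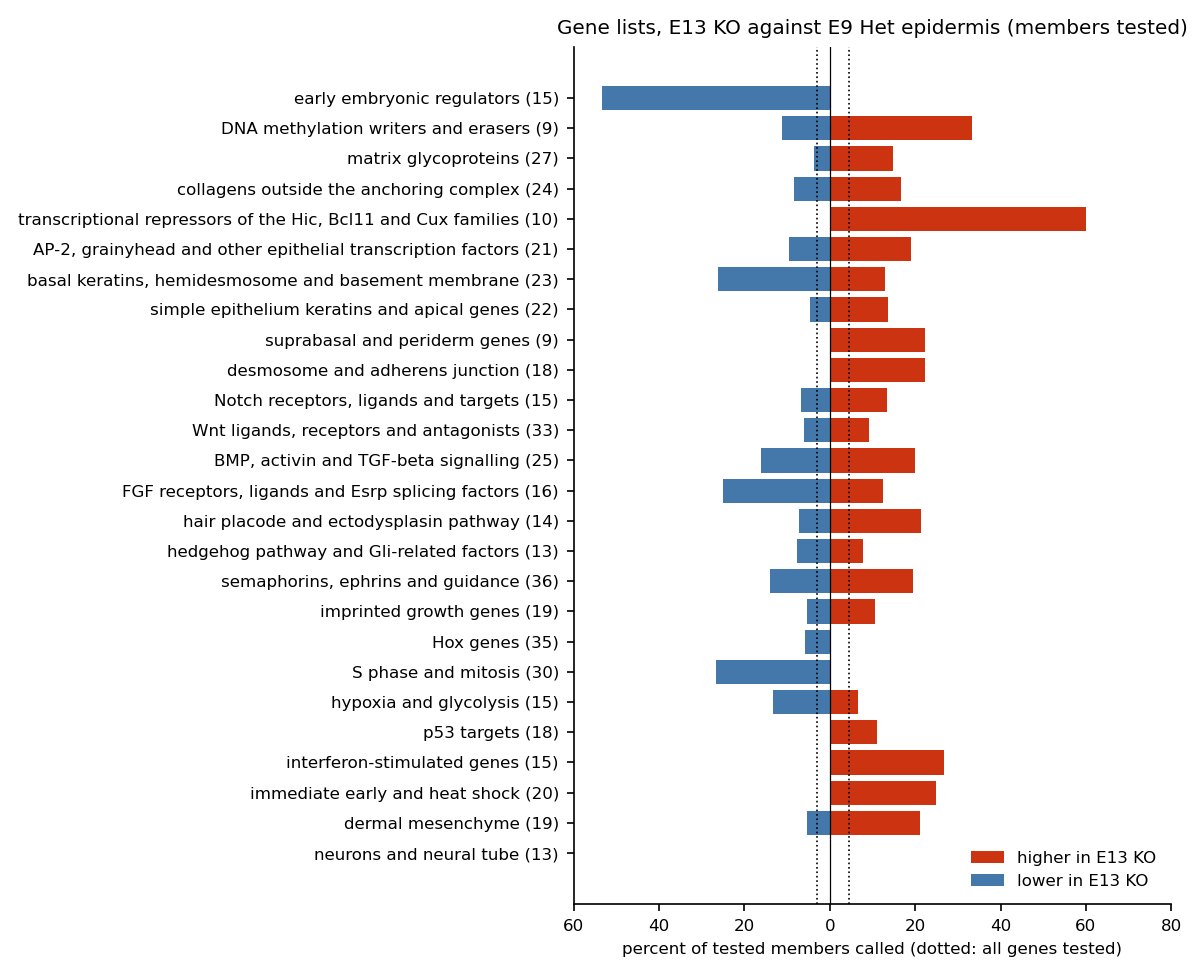
Percent of tested members called higher (red, right) or lower (blue, left) in E13 KO than in E9 Het epidermis, for each gene list with at least 9 tested members (number in brackets); dotted lines are the shares over all genes, 4.62% and 3.05%. Early embryonic regulators reach 53.3% lower, and the list of Hic, Bcl11, Cux and other repressors 60% higher. The lists were chosen with earlier results of these data known, so these shares are no test.

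The largest rises by fitted value were in genes with no counts at E9. Gria2, a subunit of AMPA-type glutamate receptors, had none at E9, 33.4, 79.2 and 35.2 CPM in E13 Het and 147, 193 and 91.8 in KO. It was at least 816-fold higher in KO and at least 287-fold higher in Het than at E9 (adjusted p = 5.03e-06 in KO; difference between KO and Het, adjusted p = 0.0742). Amtn (at least 252-fold), Fstl5 (at least 180-fold), Serpinb7 (at least 152-fold), Cyp2w1 (at least 149-fold), Fam135b (at least 148-fold), Nkain2 (at least 115-fold), Nell1 (at least 93.8-fold) and Lrrc4 (at least 87.8-fold) followed in KO. Cyp2w1, a cytochrome P450, reached 31.9, 24.1 and 30.1 CPM in KO and 45.2, 18.7 and 25.8 in Het. Fstl5 reached 24.8, 42.6 and 33.8 CPM in KO against 0, 3.43 and 0.184 in Het, but this difference was not called (4.70 ± 1.26, adjusted p = 0.0884). The calls of Lrrc4 and Nell1 were lost without E9 Het 1, E9 Het 2 or E13 KO 1, and that of Nell1 also without E9 Het 4 or E13 KO 2 (highest adjusted p = 0.0751 and 0.0915); Fam135b was lost without E9 Het 4 and E13 KO 3 together (adjusted p = 0.0512).

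Among the deepest falls, Car4 (carbonic anhydrase 4) went from 25.5, 34.8 and 79.8 CPM to no counts in KO or E13 Het, at least 237-fold and at least 241-fold lower (adjusted p = 5.10e-04 in KO). Cdx2 and Cdx1, homeobox genes of the posterior body, stood at 36.1, 30.99 and 6.65 CPM (Cdx2) and 11.5, 15.1 and 16.01 CPM (Cdx1) at E9. Cdx2 had 1 count in KO (ratio 449, 95% counting interval 80.1 to 17800, adjusted p = 0.00622) and Cdx1 none (at least 77.1-fold lower, adjusted p = 0.0185). Fndc3c1 went from 216, 193 and 122 CPM to 2.27, 4.27 and 0 (-6.19 ± 0.70, adjusted p = 3.19e-04; -7.03 without E13 KO replicate 2). Prtg (protogenin), a receptor of early ectoderm, went from 450.3, 649 and 838 to 9.40, 6.26 and 0.568 CPM (-6.79 ± 1.27, adjusted p = 0.0249) and Foxi2 from 39.1, 32.5 and 89.9 to 0.162, 0.854 and 0 (-7.03 ± 1.53, adjusted p = 0.0187; -8.78 without E13 KO replicate 2). Ppp2r2c fell to 4 counts in KO (-6.88 ± 1.43, adjusted p = 0.01103; -10.24 without E13 KO replicate 2).

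Zscan10 and Scn4b had 1 count each in KO, with ratios of 238 (42.2 to 9420) and 324 (57.7 to 12800). Myh6, a cardiac myosin, had 4.89, 2.87 and 49.01 CPM at E9, most of it in replicate 4, the library with muscle transcripts, and none in KO or E13 Het (adjusted p = 0.0317; 0.198 without E9 Het 4). Many of these calls rested on few libraries. Prtg lost its call whichever library was left out, Zscan10 and Cdx1 without any but E13 KO 3, Foxi2 and Myh6 without any 1 KO library, Cdx2 and Ppp2r2c without E9 Het 1 or 2, and Scn4b without E9 Het 1 or E13 KO 1. The highest adjusted p over these refits was 0.105 for Prtg, 0.148 for Zscan10, 0.0741 for Cdx1, 0.115 for Foxi2, 0.0647 for Cdx2, 0.104 for Ppp2r2c and 0.0928 for Scn4b.

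Markers of cell types other than dermal mesenchyme gave almost no calls. No gene of the lists for neurons and neural tube (13 tested), skeletal muscle (6), endothelium (4), red cells (1), macrophages (1) or melanocytes and neural crest (5) was called between KO and E9 Het, and of 3 endoderm genes tested only Cdx2 was, which is also a gene of posterior ectoderm. Summed levels in the KO libraries were 208 to 333 CPM for the neural list (284 to 302 at E9), 12.5 to 26.4 for endothelium (2.14 to 19.5 at E9), 6.54 to 50.2 for macrophages (3.97 to 9.60 at E9) and 7.39 to 42.8 for the list named for skeletal muscle (39.2 to 311 at E9). The sum was 18.5 to 52.95 CPM for melanocytes and neural crest, below 88.9 to 117 at E9, and 3.57 to 13.9 for red cells (0.306 to 66.5 at E9). The 13 neural genes tested had a median log2 fold change of -0.95 in KO against E9 Het. Their median was 1.41 in KO against E13 Het. Map2 therefore went against the median of its list in the first comparison and with it in the second. Map2, a neuronal cytoskeleton gene, had 46.7, 24.7 and 16.99 CPM at E9 and 81.7, 129.8 and 49.2 in KO (1.56 ± 0.63, adjusted p = 0.174), and was higher in KO than in E13 Het (2.99 ± 0.66, adjusted p = 0.0408), a difference kept only without E9 Het 1, E13 Het 1 or E13 Het 3 (highest adjusted p = 0.151). Hba-a1 had no counts in any of the 6 libraries, and Myod1, Sox17, Ptprc and C1qa had none at E9. The part of such cells in the values above was not tested.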

How the data were processed

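The authors deposited 1 table of whole-number read counts per gene for each RNA library, made with TopHat2, Bowtie2 and HTSeq on mm10 per the submitters' processing notes; no source used here gives their versions, the annotation or the strand setting. The 5 summary lines of each file (56.64 to 63.79% of what the 6 compared files count) were left out of totals and tests. In R 4.3.3, edgeR 4.0.16 filtered genes (filterByExpr), scaled the 9 epidermal libraries by TMM and fitted them without a covariate (robust quasi-likelihood F test; p adjusted after Benjamini and Hochberg); the standard error is the absolute log2 fold change divided by the root of F. Totals of 3373819 to 6796420 gene counts per library limit what low genes can show. Counting intervals (95%, exact) and floors (3 counts over a group) cover counting error only, since the reads carry no molecular identifiers.

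The members and the 33 gene lists were chosen with earlier results of these data known. A few genes were taken out of these lists and are not reported here. The text names Trp63, the 4 marker genes, the 12 higher and 12 lower genes that changed most and were called, given no overlap of groups and 10 CPM or more on average in either group, the 5 in each direction with the smallest p, and, from each list, up to 4 members with the smallest p and its first 3; clone and predicted names were passed over. Other called list members were named after their values were seen, to account for a count. Symbols were matched to RefSeq (GRCm38.p6) for positions and promoters: 21570 by symbol, 1688 by synonym and 174 not matched. Of 212 genes that the rule covers, 32 overlap another counted gene and are uncertain to that extent.

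On simulated counts for 13052 genes in this comparison, the fit recovered 9 of 50 genes changed 2-fold, 33 of 50 changed 4-fold, 40 of 50 changed 8-fold and 41 of 50 changed 16-fold, with 3 false among 126 calls. The changed genes had a mean of 10 CPM or more. Far fewer genes were called than the 1001 of the data, which makes the adjusted p threshold stricter in the simulation. Alternatives were DESeq2 1.42.0, limma 3.58.1 (voom with quality weights), other scalings and filters, the 6 libraries alone, a test against a 2-fold change, a replicate block, leaving out each library in turn (for E13 Het libraries this was added after seeing the data), leaving out E9 Het 4 with E13 KO 3, and other totals for the dermal percentages (added after seeing the data). The ATAC-seq and ChIP-seq samples were not used here.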

Additional observations from a re-analysis of the deposited data

Results flagged for a closer look

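For 31 of the genes described, the stage change in KO and the stage change in Het differed by the edgeR test of E13 KO against E13 Het (adjusted p under 0.05, n = 3 and 3 libraries). Both changes start from the same E9 Het libraries. The values that follow are the KO change minus the Het change on the log2 scale, and they stand as measured differences with no explanation weighed.

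Among basal, junction and suprabasal genes the difference was -5.17 for Krt5, -2.73 for Fbln2, -2.63 for Fermt1, -2.44 for Itgb4, -1.90 for Col18a1 and -0.85 for Itga3. It was -4.56 for Dsg3, -1.75 for Dsp, -1.75 for Sfn and -1.40 for Grhl3, and -4.54 for Trp63 itself. Epcam had 1.19 and Ahr 1.14.

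In signalling, the adaptor gene Edaradd had the largest difference of the 31, -7.45, and Fgfr2 had -2.32 while Fgfr1 had 1.12. Notch pathway genes were lower in KO for Nrarp (-2.99), Jag2 (-2.88), Dll1 (-2.76) and Notch1 (-2.22) and higher for Notch3 (1.44). The TGF-β genes Ltbp1, Tgfb2 and Skil had 1.39, 1.26 and 0.86.

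Genes with a higher value in KO also included Map2 (2.99), Sema3a (2.53), Cdkn1c (1.98), Epha7 (1.61), Trps1 (1.41), Sema3c (1.22) and Gas1 (0.90). Trp63, Fgfr2, Edaradd and Sema3a were called in both genotypes with opposite signs. Of the 31 differences, 20 held in every refit that left out 1 of the 9 epidermal libraries; those of Grhl3, Itga3, Sfn, Dsg3, Skil, Ltbp1, Tgfb2, Fgfr1, Gas1, Epha7 and Map2 did not.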

How the results depend on the processing

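The count of 1001 called genes (603 higher, 398 lower) moved by over 1.5 times under 4 alternatives and in 3 of the 6 refits that left out 1 library. DESeq2 called 2172 genes (1229 higher, 943 lower), among them all 1001. The voom fit called 2575 (1418 and 1157), sharing 980. The test against a 2-fold change called 233 (177 and 56), and the fit with a replicate block called 540 (333 and 207), sharing 492. With that block, 75 of the 119 described genes called in KO against E9 kept their call, and 67 of the 92 called in Het against E9. Atf3, Btg2, Vim, Col5a2 and Serpinb7 were among those whose KO call was lost with the block. Same-numbered E9 Het and E13 KO libraries did not deviate together (correlations 0.00438 and 0.0144 for 2 pairs, -0.0184 to 0.0163 for the other 7). For E13 Het and E13 KO the same-numbered correlations were -0.0493, 0.233 and -0.0529, against -0.152 to 0.127 for the other pairs. The value of 0.233, between the replicates numbered 2, lay above all of those. Whether these replicates shared an origin was not tested. The numbers were not taken to pair the samples because the labels do not say what they stand for. Between E13 KO and E13 Het the replicate block called 286 genes against 287 (234 shared) and kept 26 of the 31 described differences. Leaving out 1 library gave 557 to 815 calls, 383 to 501 higher and 174 to 320 lower. With the other alternatives the count ran from 727 to 1302; scaling by raw totals gave 67.7% of calls higher against 60.2%, with a median over all genes of 0.07 on the log2 scale. Of 119 called genes described, 76 kept the call whichever library was left out and 46 kept it under all other alternatives; in 2678 refits of gene values in KO against E9 Het, none reversed a called value, 313 fell below the threshold and 46 crossed above it. Of 92 described genes called between E13 Het and E9 Het, 64 kept that call whichever of those 6 libraries was left out; refits without an E13 Het library were added after seeing the data. On simulated counts, where only genes with a mean of 10 CPM or more were changed, 2-fold changes were mostly missed. An uncalled gene may therefore still differ.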
